A study of Homo sapiens with 3 samples.

Results

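Very long protein-coding genes, those of 200 kb or longer, were examined for peaks of histone H4 lysine 12 lactylation (H4K12la) lying in their interiors. A peak was taken when it lay wholly inside such a gene on chromosomes 1 to 22, in the RefSeq annotation of GRCh38, and more than 5 kb from both ends of every protein-coding gene. These intragenic peaks numbered 12010 of the 61648 autosomal peaks in 786-O replicate 2 (19.5%). They numbered 11349 of 59625 in Caki-1 replicate 1 (19.0%) and 12688 of 66524 in Caki-1 replicate 2 (19.1%). Of 19126 protein-coding genes on these chromosomes, 1340 were of this length, with interiors spanning 543 Mb, and 1298 of them held such a peak in at least 1 library.

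The mark was profiled by CUT&Tag, in which an antibody tethers a transposase to chromatin so that DNA near the mark is cut and tagged for sequencing. Both groups are untreated established lines of human renal carcinoma: 786-O, from a primary clear cell tumour without functional VHL, and Caki-1, from a metastasis with functional VHL. Used here were 1 library of 786-O, its replicate 2, and replicates 1 and 2 of Caki-1; the other 786-O replicate was not analysed here. Whether the Caki-1 replicates are separate cultures is not said in the labels, so their spread may be technical. No control library was used here, and whether the authors' peak calls used one is not known. With 3 libraries there are 3 possible labelings, so an exact permutation test between the lines cannot go below a p of 0.333. No test was run, and each difference between lines is set beside the difference between the Caki-1 replicates. 95% intervals cover counting error only.

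Lactylation attaches a group derived from lactate, the end product of glycolysis, to lysines of histones, and it has been studied mainly at promoters and enhancers of active genes. The interior of a very long gene is almost all intron, and introns hold enhancers, alternative promoters and the hairpins of microRNAs. Very long genes are common among genes of synaptic adhesion and at fragile sites, which replicate late in S phase and break under replication stress.

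Some of the strongest intragenic peaks sat on alternative start sites, far downstream of a gene's outermost start. The RefSeq windows below (GRCh38.p14, 250 bases before to 50 after a start, 5′ to 3′ on the gene's strand) show such sites. The first 4 were covered in all 3 libraries, the next in 786-O alone and the last in both Caki-1 libraries and not 786-O. Capitals mark matches, on either strand, to any of 5 motifs of general promoter or enhancer factors. The GC box was searched as GGGCGG, read by SP factors in many promoters. The binding motif of ETS factors was searched as CCGGAAG, found at many housekeeping starts. The motif read by NF-Y was searched as CCAAT, common upstream of starts. The AP-1 motif, read by FOS and JUN at enhancers, was searched as TGANTCA. The TATA box, which places the start of transcription, was searched as TATAAA. Matches of different motifs shared bases in 277 of 33725 RefSeq start windows (0.821%).
VRK2, a serine/threonine kinase, chr2:58046392-58046691 (+): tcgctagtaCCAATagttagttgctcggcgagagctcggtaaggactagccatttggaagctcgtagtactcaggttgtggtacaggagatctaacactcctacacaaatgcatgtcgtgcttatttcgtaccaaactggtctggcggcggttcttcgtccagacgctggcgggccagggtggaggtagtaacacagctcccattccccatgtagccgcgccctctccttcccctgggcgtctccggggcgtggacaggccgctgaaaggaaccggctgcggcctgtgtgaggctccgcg
CHD9, a chromatin remodeller, chr16:53130762-53131061 (+): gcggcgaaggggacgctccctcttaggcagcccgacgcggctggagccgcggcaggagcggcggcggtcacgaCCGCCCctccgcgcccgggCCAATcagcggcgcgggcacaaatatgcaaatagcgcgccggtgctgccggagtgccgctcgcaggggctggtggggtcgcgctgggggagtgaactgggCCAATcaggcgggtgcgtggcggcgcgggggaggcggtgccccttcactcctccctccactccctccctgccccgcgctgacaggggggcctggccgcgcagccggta
ZBTB20, a zinc finger repressor, chr3:114624157-114624456 (-): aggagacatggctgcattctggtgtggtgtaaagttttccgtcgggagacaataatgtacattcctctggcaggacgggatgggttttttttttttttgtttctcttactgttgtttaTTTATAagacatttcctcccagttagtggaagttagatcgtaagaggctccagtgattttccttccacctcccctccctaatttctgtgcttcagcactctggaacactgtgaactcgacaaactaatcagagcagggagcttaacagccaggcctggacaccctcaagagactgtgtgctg
FOCAD, which encodes focadhesin, chr9:20684009-20684308 (+): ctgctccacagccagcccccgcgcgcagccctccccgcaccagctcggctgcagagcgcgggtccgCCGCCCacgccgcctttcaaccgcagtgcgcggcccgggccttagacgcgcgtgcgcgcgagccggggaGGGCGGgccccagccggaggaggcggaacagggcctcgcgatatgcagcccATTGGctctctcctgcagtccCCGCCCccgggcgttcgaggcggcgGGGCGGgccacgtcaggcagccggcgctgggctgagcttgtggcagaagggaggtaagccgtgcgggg
MICAL2, an enzyme that oxidises actin, chr11:12138140-12138439 (+): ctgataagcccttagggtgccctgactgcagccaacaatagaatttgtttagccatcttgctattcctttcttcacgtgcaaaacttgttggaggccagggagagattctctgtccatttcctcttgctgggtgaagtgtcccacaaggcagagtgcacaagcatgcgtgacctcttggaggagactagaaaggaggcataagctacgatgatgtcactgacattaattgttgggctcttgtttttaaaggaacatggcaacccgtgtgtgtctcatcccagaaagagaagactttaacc
HIP1, a clathrin adaptor, chr7:75611767-75612066 (-): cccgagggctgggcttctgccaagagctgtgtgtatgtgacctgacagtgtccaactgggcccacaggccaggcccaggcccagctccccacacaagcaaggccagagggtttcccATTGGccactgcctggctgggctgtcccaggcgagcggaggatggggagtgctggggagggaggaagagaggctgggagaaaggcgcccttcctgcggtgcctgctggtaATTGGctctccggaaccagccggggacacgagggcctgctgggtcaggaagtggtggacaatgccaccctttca
The FOCAD window held 39 CpG and 76.3% G and C, with 4 GC boxes and 1 NF-Y motif. The ZBTB20 window held 5 CpG and 45.7% G and C. Its match to the TATA box letters was on the strand opposite to the gene, so it is not read as a working TATA box. The MICAL2 window held none of the 5 motifs, and 147 of its 300 bases lay in the 786-O peak.

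Interiors of the long genes were more sparsely occupied than those of shorter genes. 786-O had 22.1 peaks per Mb of long gene interior, against 35.8 in genes of 50 to 200 kb, 33.2 in genes under 50 kb and 11 in distal space outside genes, each by the same distance rule. Caki-1 replicate 1 had 20.9 peaks per Mb in long genes, against 35.2, 34.6 and 10.2 in the same classes. Caki-1 replicate 2 had 23.4 in long genes, against 40.1, 40.5 and 11.3. The order of long genes between shorter genes and distal space was the same in each library, and the gap to shorter genes was larger than the difference between the Caki-1 replicates in any class.

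Density was lowest in the longest genes. In genes of 200 to 300 kb (601 genes) the interiors held 31.9 peaks per Mb in 786-O, with 29.1 and 32.6 in Caki-1 replicates 1 and 2, below the values of shorter genes in each library, with the smaller gap in 786-O. In genes of 300 to 500 kb (436) they held 26.2 in 786-O compared with 24.5 and 27.5 in Caki-1. In genes of 500 to 1000 kb (237) they held 18.5 in 786-O, with 16.7 and 18.6 in Caki-1. In the 66 genes of 1000 kb or longer they held 6.12 in 786-O compared with 9.07 and 10 in Caki-1, at or under the density outside genes. Density fell with each step in length in every library. It is at the greatest lengths that the lines stood apart, 786-O being lower than both Caki-1 libraries. Across the limit itself, genes of 200 to 210 kb held 27.6 peaks per Mb in 786-O, with 26.7 and 28.6 in Caki-1, and genes of 190 to 200 kb held 32.7 in 786-O compared with 31.4 and 36.0 in Caki-1.

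**Figure D1:**
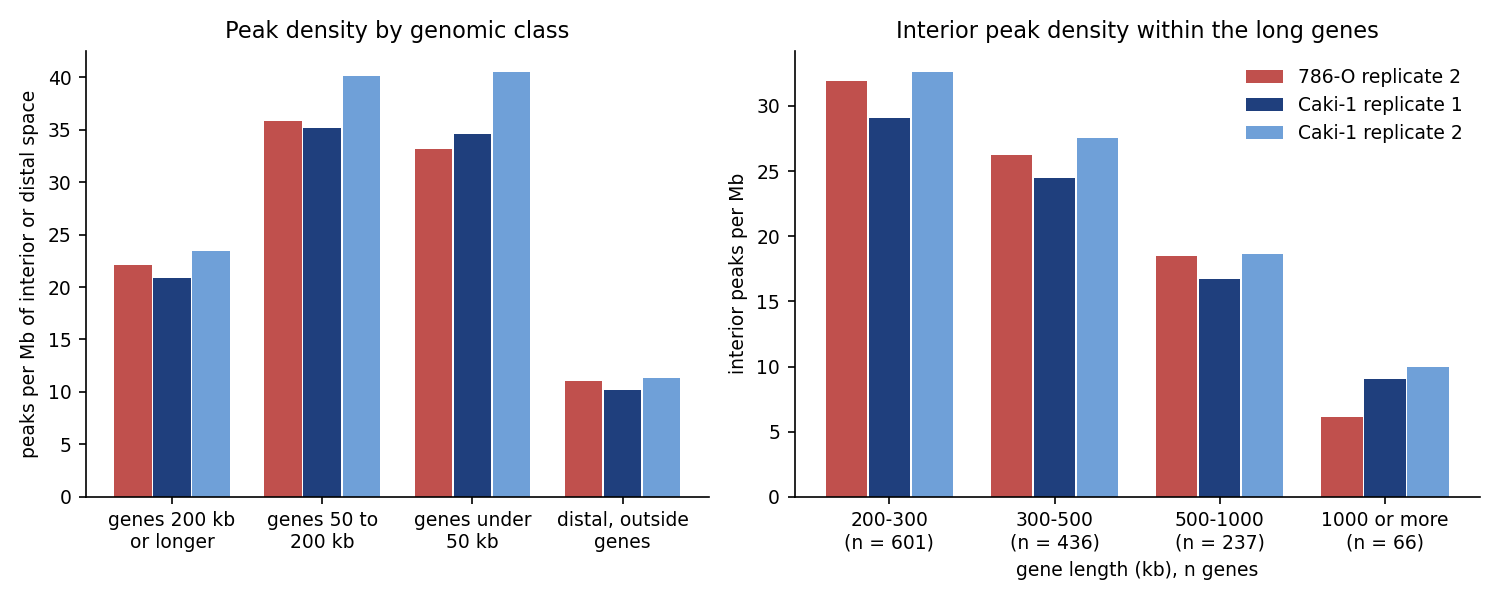
Peaks per Mb in each library by genomic class (left) and, within the long genes, by gene length in kb (right), with bars for 786-O replicate 2 and Caki-1 replicates 1 and 2. Long gene interiors lie between shorter genes and distal space, and density falls from 31.9, 29.1 and 32.6 per Mb at 200 to 300 kb to 6.12, 9.07 and 10 at 1000 kb or more.

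Intragenic peaks of long genes were also weaker than other genic peaks in the lists of 786-O and Caki-1 replicate 1. The lists give 1 value per peak, the authors' own, and only its percentile rank within a list was used. The median rank was 40.3 in 786-O, against 48.2 for interiors of genes of 50 to 200 kb and 82.6 for peaks within 1 kb of a gene end. It was 42.3 in Caki-1 replicate 1, against 53.6 and 79.4, and 43.6 in Caki-1 replicate 2, against 44.7 and 80.8. The gap to genes of 50 to 200 kb was thus small in Caki-1 replicate 2, whose list carries another kind of value, while the gap to gene ends was wide in all 3. Ranks above 90 were held by 4.64%, 5.65% and 5.18% of long gene peaks, against 9.83%, 10.4% and 10% of all autosomal peaks. Median widths were 471, 497 and 551 bp, against 697, 716 and 813 bp at gene ends and 479, 495 and 549 bp in genes of 50 to 200 kb, so the widths were close to those of other interiors.

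Between the lines, positions in long genes were shared less often than for all peaks, which include gene-end peaks, and more often than for distal peaks. A peak counted as shared when it overlapped a peak of the other library by at least 1 bp. Of the 786-O peaks in long genes, 36.2% overlapped Caki-1 replicate 1 and 39.6% replicate 2, against 44.4% and 47.7% of all 786-O peaks and 33.7% and 36.1% of distal ones. Of the Caki-1 peaks in long genes, 38.1% of replicate 1 and 37.3% of replicate 2 overlapped 786-O, against 45.9% and 43.9% of all peaks. The Caki-1 replicates overlapped each other by 60.6% and 53.8% in long genes, against 66.1% and 58.9% of all peaks. Each share between the lines in long genes was thus below both shares between the replicates.

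Part of that sharing followed strength, so it was also read at equal rank. Of 786-O long gene peaks ranked above 90, 82.0% (95% CI 78.6 to 85.1) overlapped Caki-1 replicate 1, against 97.5% (96.9 to 98.0) of gene-end peaks of the same rank. In the lowest 25% of ranks the shares were 16.8% (15.6 to 18.1) in long genes and 32.4% (28.5 to 36.6) at gene ends. Above rank 90, distal peaks outside genes were at 81.5% (78.5 to 84.3) and peaks of genes of 50 to 200 kb at 83.2% (80.5 to 85.7). Both shares were within the interval of the long gene peaks. In the lowest 25% of ranks neither was. Distal peaks there were at 14.5% (13.6 to 15.4) and peaks of genes of 50 to 200 kb at 20.1% (18.6 to 21.7). Between the Caki-1 replicates the strongest long gene peaks overlapped by 97.2% (replicate 1 in 2) and 98.8% (replicate 2 in 1), so that even the strongest intragenic peaks differed more between lines than between replicates.

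Merging the 3 lists gave 23447 intragenic regions. All 3 libraries covered 3508 of them (15%), only 786-O 6370 (27.2%), and the Caki-1 pair but not 786-O 3312 (14.1%). A further 3596 and 4591 were seen in Caki-1 replicate 1 or 2 alone. The regions of 786-O alone have no replicate and cannot be split in the same way into repeated and unrepeated ones.

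Taken gene by gene, 1025 of the 1340 long genes (76.5%) held an intragenic peak in every library, against 29.3% of protein-coding genes of any length, most of which offer little interior. 42 long genes (3.13%) held none in any library. The median number per gene was 7 in 786-O, with 6 and 7 in Caki-1 replicates 1 and 2. As a description over these 1340 genes, whose counts share gene length, Spearman's rho of the counts was 0.55 and 0.56 between 786-O and the Caki-1 replicates, and 0.95 between the Caki-1 replicates.

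The 10 genes with the most regions covered in all 3 libraries are described first. TRIO, an exchange factor for small GTPases on chromosome 5 (14143342 to 14510204), held 26 regions covered in all 3 libraries, with 45 peaks in 786-O compared with 41 and 46 in Caki-1. PTPRM, a receptor tyrosine phosphatase of cell contacts on chromosome 18, held 23, with 44 peaks in 786-O compared with 74 and 92 in Caki-1. ASAP1, an Arf GTPase-activating protein, held 19. FNDC3B, a membrane protein with fibronectin domains, and AGAP1, another Arf regulator, held 18 each. ASPH, an aspartate hydroxylase of the endoplasmic reticulum, and the kinase PRKCA held 17 each. EFNA5, an ephrin ligand, PTK2, the focal adhesion kinase, and RASAL2, a Ras GTPase-activating protein, held 16 each.

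Per length, genes with at least 10 peaks in each library were ranked by their lowest density over the 3 libraries. ASPH came first, with 148 peaks per Mb in 786-O compared with 133 and 153 in Caki-1. TRIO followed, with 126 in 786-O compared with 115 and 129 in Caki-1. By the same rule came PTK2, MYO10, an unconventional myosin of filopodia, EFNA5, EXT1, which builds heparan sulfate, PKP4, a plakophilin, ASAP1, CDK6, a cell cycle kinase, and SEPTIN9. In 9 of 10 of these genes the counts of the 3 libraries lay within 1.5 times of one another. SEPTIN9, with 17 peaks in 786-O compared with 25 and 29 in Caki-1, did not. These genes were chosen for the highest lowest density over the 3 libraries, so their density in both lines is a description of the choice.

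At the other extreme stood genes without a single intragenic peak. The longest was CSMD1, which encodes a large complement-regulating membrane protein, with 2059554 bp on chromosome 8. It was followed by DPP10, an auxiliary subunit of potassium channels, DCC, the netrin receptor, CNTN4, a contactin of axons, and UNC13C, a factor of synaptic vesicle priming. SORCS1, a sorting receptor, GABRG3, a GABA receptor subunit, TAFA1, C12orf42 and TMEM132C completed the 10. In 9 of these 10 no library had a gene-end peak either, the exception being a peak at CSMD1 in Caki-1 replicate 1. The surroundings were not uniformly empty: within 1000 kb on either side, TAFA1 had 47 peaks in 786-O, with 26 and 32 in Caki-1, while SORCS1 had 1 in 786-O and 0 in both Caki-1 libraries.

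Some long genes held many more intragenic peaks in 1 line than in the other. A gene was called richer in 786-O when it held at least 6 intragenic peaks there and at least 2 times the count of each Caki-1 library, after scaling to each list's total in long genes and with counts under 3 taken as 3. By this rule 187 long genes (14%) were richer in 786-O, against 1.41% of protein-coding genes of any length, few of which have room for 6 peaks. The mirror rule, met in both Caki-1 libraries, gave 130 genes richer in Caki-1 (9.7%), against 1.26%. Single pairs of libraries across the lines gave 215 and 240 long genes richer in 786-O than Caki-1 replicates 1 and 2 (against 1.79% and 2.23% of genes of any length), and 179 and 162 richer in those Caki-1 libraries (against 2.16% and 1.85%). The pair of Caki-1 replicates gave 19 richer in replicate 1 and 16 richer in replicate 2, against 0.356% and 0.319% of genes of any length. Each count across the lines was thus several times the counts between replicates.

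**Figure D2:**
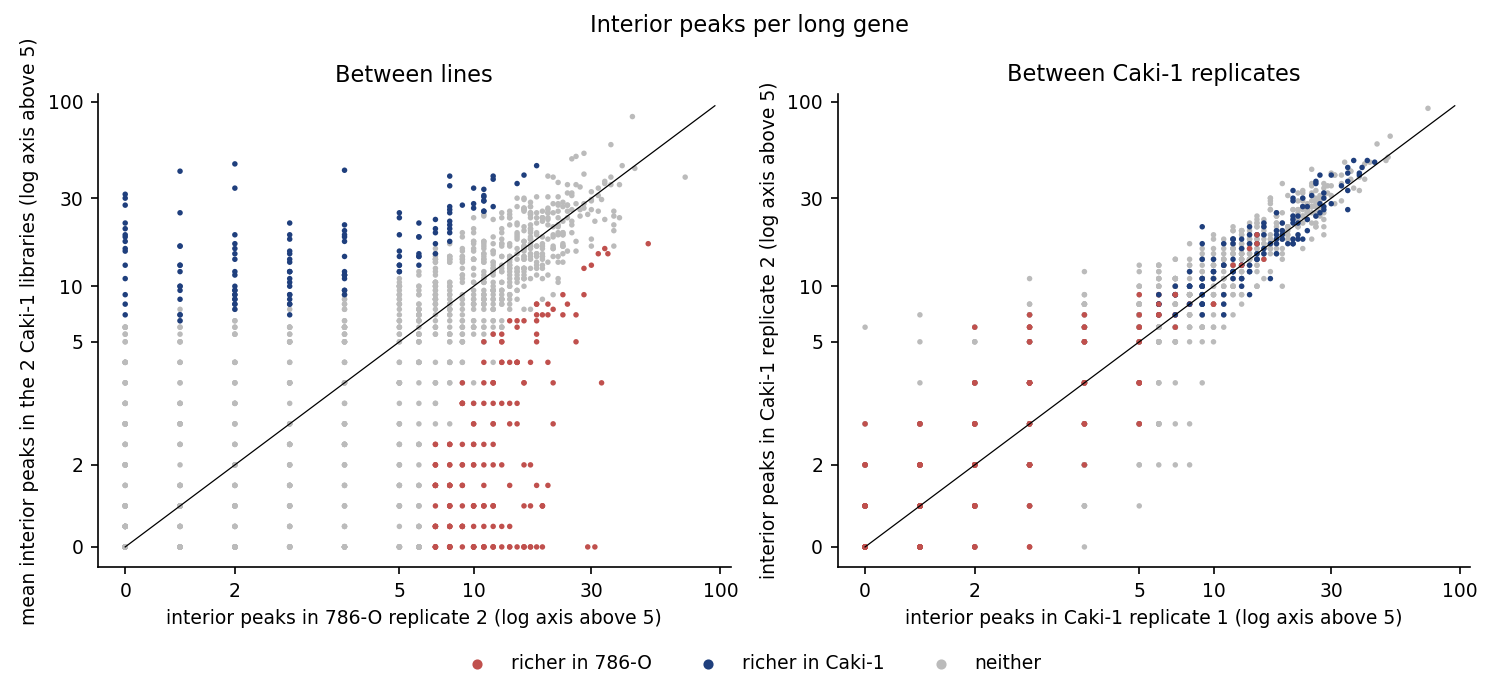
Intragenic peaks per long gene (1340 points), on axes that are linear up to 5 and logarithmic above: 786-O against the mean of both Caki-1 libraries (left) and Caki-1 replicate 1 against replicate 2 (right), with the line of equal counts. Genes richer in 786-O (187) and in Caki-1 (130) leave the diagonal between the lines and lie along it between the replicates, where Spearman's rho is 0.95.

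Among genes richer in 786-O, the largest scaled ratio belonged to CTNND2, which encodes delta-catenin, a junction protein of neurons, on chromosome 5 (10971836 to 11904446). It held 31 peaks in 786-O compared with 0 and 0 in Caki-1. TENM4, a teneurin adhesion receptor on chromosome 11 (78652829 to 79441030), held 29 in 786-O, with 0 and 0 in Caki-1. Both genes were empty in the interior in each Caki-1 library, and counts of 0 were taken as 3, so the scaled ratios of at least 9.76 and 9.13 are lower bounds. NTM, neurotrimin, held 19 in 786-O compared with 0 and 0 in Caki-1, and FBXL7, an F-box protein, 18 in 786-O compared with 0 and 0 in Caki-1. SEMA5A, a semaphorin, held 33 in 786-O compared with 5 and 3 in Caki-1.

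Also in the 10 with the largest ratios were CACNA2D3, a calcium channel subunit (20 peaks in 786-O, 2 and 1 in Caki-1), KIRREL3, an immunoglobulin adhesion protein (19, against 1 and 1), KCNQ5, a potassium channel (19, against 1 and 1), and NTNG1, netrin G1 (18, against 1 and 2). Those named here encode membrane, adhesion or signalling proteins best known from neurons, apart from FBXL7. In all, 41 of the 187 genes had no intragenic peak in either Caki-1 library. Of all 1340 long genes, 1131 and 1138 held one in Caki-1 replicates 1 and 2.

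Among genes richer in Caki-1, PARD3B, a cell polarity protein on chromosome 2 (204545475 to 205620162), held 2 peaks in 786-O, with 45 and 47 in Caki-1. CSMD3, a relative of CSMD1 on chromosome 8, held 1 in 786-O compared with 40 and 44 in Caki-1. GALNT13, which starts mucin-type O-glycosylation, held 2 in 786-O, with 35 and 33 in Caki-1. IMMP2L, a peptidase subunit of the inner mitochondrial membrane, held 4 in 786-O compared with 37 and 48 in Caki-1.

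No intragenic peak of 786-O lay in NAALADL2, a carboxypeptidase-like protein (28 and 32 in Caki-1), NLGN1, the synaptic adhesion protein neuroligin 1 (26 and 37), LRP1B, a lipoprotein receptor of 1899594 bp (27 and 28), or PLXDC2 (21 and 23). RGS7, a regulator of G protein signalling, held 1 in 786-O, with 21 and 29 in Caki-1. In all, 15 of the 130 genes had no intragenic peak in 786-O, where 1212 of all 1340 long genes held one. A low count in the other line is part of the call.

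The spread of the peaks along these genes was described with windows of 50 kb, and since the genes were called on their peak counts, the contrast between lines follows from the call. Of the 50-kb windows of the 187 genes richer in 786-O, 66.1% were occupied in 786-O, compared with 18.7% and 19.8% in Caki-1 replicates 1 and 2. Of the windows of the 130 genes richer in Caki-1, 25.7% held one in 786-O, with 66.5% and 68.5% in Caki-1. Over all long genes the shares were 49.9% in 786-O compared with 45.5% and 47.2% in Caki-1. PARD3B had a peak in 2 of 22 windows in 786-O and in 21 and 19 in Caki-1, CTNND2 in 15 of 19 in 786-O and in 0 and 0 in Caki-1, and GALNT13 in 2 of 28 in 786-O and in 17 and 17 in Caki-1.

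**Figure D3:**
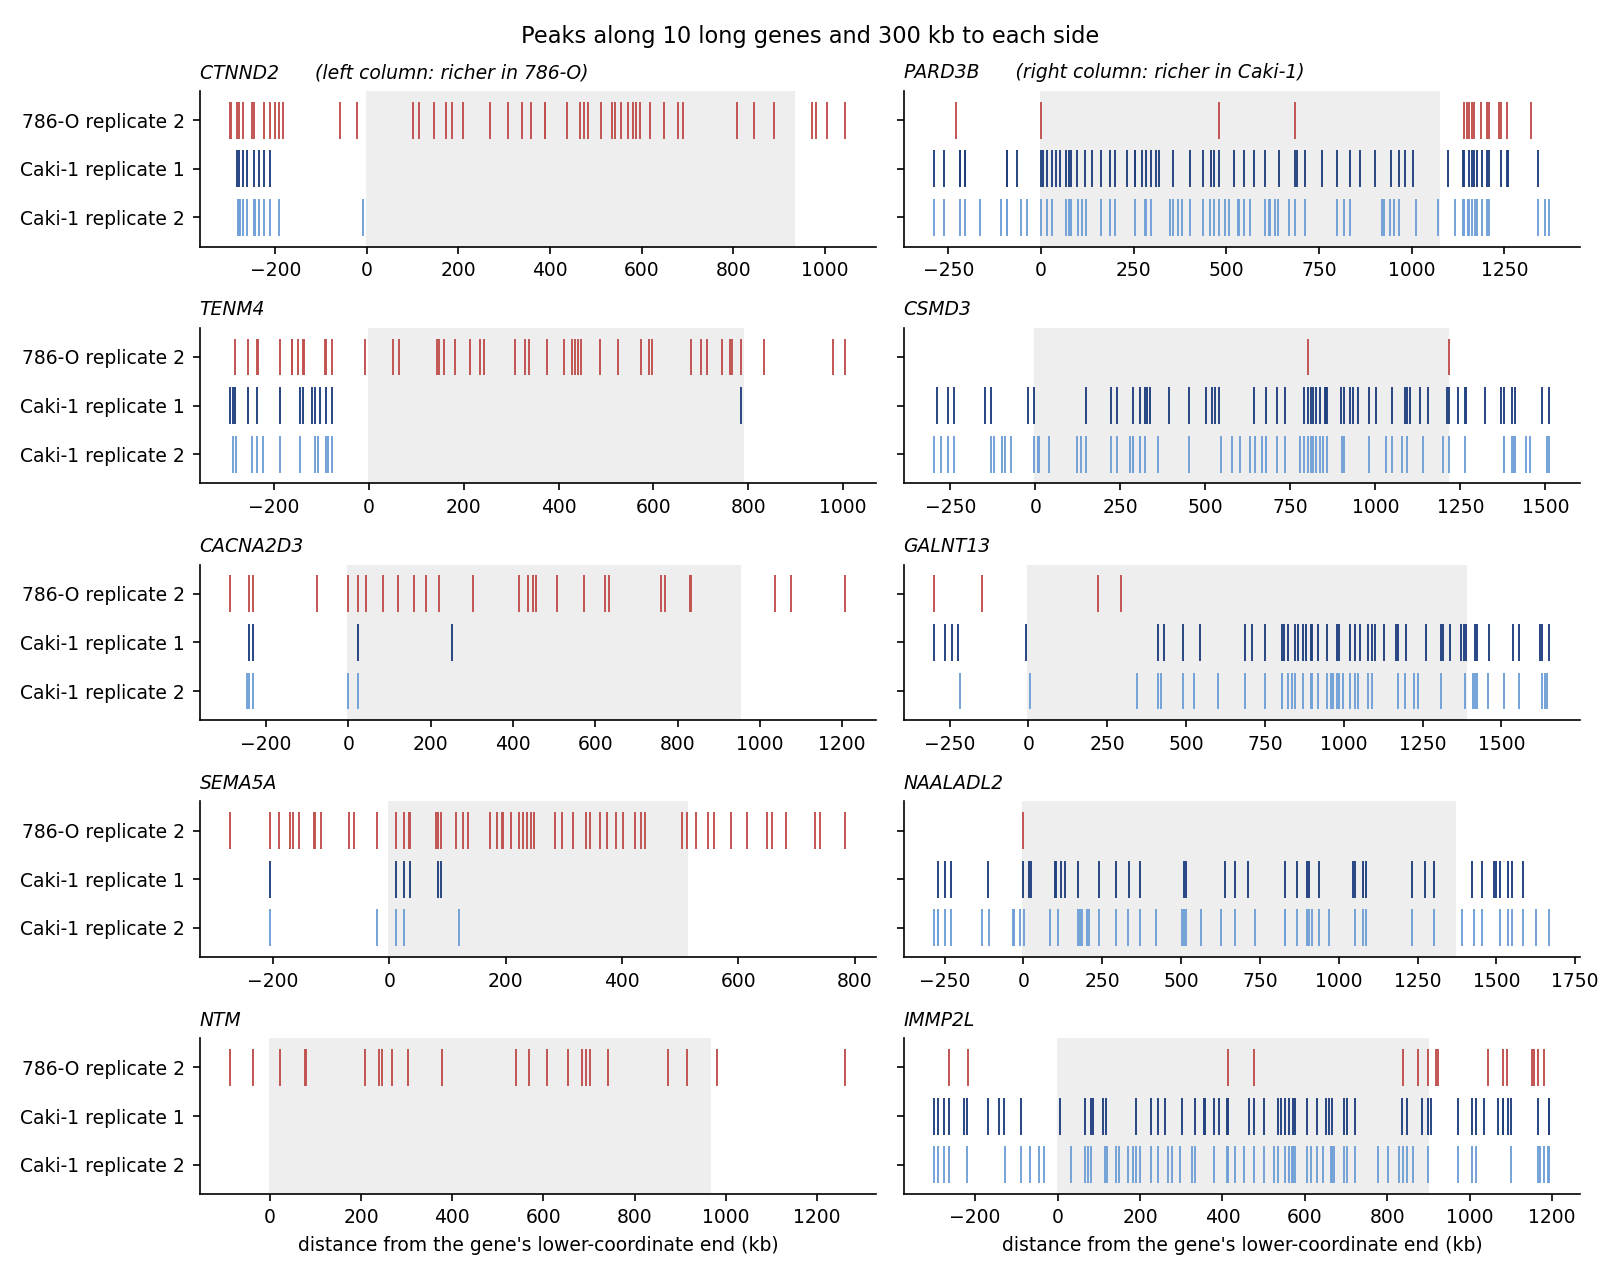
Peaks (ticks) along 10 long genes (grey) and 300 kb to each side, in kb from the gene's lower-coordinate end, for 786-O replicate 2 (top row of each panel) and Caki-1 replicates 1 and 2 below it. The left column shows 5 genes richer in 786-O, such as CTNND2 with 31 intragenic peaks against 0 and 0, and the right column 5 richer in Caki-1, such as PARD3B with 2 against 45 and 47.

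The peaks that filled these genes mostly ranked below 50, though in Caki-1 replicate 2 hardly more so than in other long genes. In the genes richer in 786-O, 29.1% of the 786-O peaks ranked in the upper 50% of their list and the median rank was 31.3, against 42.1% and 44.4 in the 1023 long genes richer in neither line. In the genes richer in Caki-1, 39.2% and 42.9% of the Caki-1 peaks ranked above 50, with medians of 38.1 and 43.6, against 45.5% and 44.9% and medians of 42.3 and 44.7 in the genes richer in neither. CTNND2 kept 2 of its 31 peaks in 786-O when only ranks above 50 were used, NTM 4 of 19 and TENM4 12 of 29. PARD3B kept 8 of 45 and 13 of 47 in Caki-1, and LRP1B 2 of 27 and 14 of 28. By contrast TRIO kept 45 of 45 in 786-O and 41 of 41 in Caki-1 replicate 1. In Caki-1 replicate 2 it kept 24 of 46, a share near that of LRP1B in the same library. With ranks above 50 only, 89 long genes were richer in 786-O, of which 38 were among the 187, and 60 were richer in Caki-1, of which 34 were among the 130.

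Chromosome and neighbourhood moved with these calls. Of the 98 long genes of chromosome 6, 35 were richer in 786-O and 0 in Caki-1. On chromosome 14 these calls were 16 and 0 of 35 long genes, and on chromosome 15 they were 14 and 1 of 51. Chromosome 13 held 0 richer in 786-O and 15 richer in Caki-1 of 40 long genes. Chromosome 4 held 3 and 17 of 86, and chromosome 1 held 13 and 28 of 117. Over all long genes the shares were 14% and 9.7%. Over all its peaks, chromosome 6 had 4111 in 786-O, with 1970 and 2203 in Caki-1, and chromosome 13 had 766 in 786-O compared with 1611 and 1866 in Caki-1, so whole chromosomes differed in the same direction. Scaled to all peaks of the gene's chromosome, 143 genes were richer in 786-O, including 128 of the 187, and 96 were richer in Caki-1, including 90 of the 130. Within 1000 kb on either side of the 187 genes, 786-O had the higher count than both Caki-1 libraries at 142 of them. Both Caki-1 libraries were higher at 19. The medians were 58 peaks in 786-O compared with 35 and 39 in Caki-1. At the 130 genes both Caki-1 libraries had the higher count at 111, with medians of 32 in 786-O compared with 53.5 and 60 in Caki-1. Neither DNA copy number nor read depth was available to this comparison, and their part in these counts was not tested.

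The longer the gene, the more often it was richer in 1 line. Either call applied to 16.6% of genes of 200 to 300 kb, 23.2% of those of 300 to 500 kb, 36.3% of those of 500 to 1000 kb and 45.5% of those of 1000 kb or longer. Among the 66 genes of 1000 kb or longer, 9 were richer in 786-O and 21 in Caki-1, whereas 58 and 42 of the genes of 200 to 300 kb were. A longer gene has more room for the 6 peaks that a call needs, and the part of that room in the trend was not tested.

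Functional groups differed in density and in which line was richer. The 39 long genes of synaptic and neuronal adhesion had a median of 4.62 peaks per Mb in 786-O, with 4.62 and 5.28 in Caki-1, against 21.4 in 786-O compared with 17.7 and 19.1 in Caki-1 over all 1340 long genes. 8 of them were richer in 786-O (20.5%) and 9 in Caki-1 (23.1%), against 14% and 9.7% of all long genes, and 2 were empty in every library. Besides the genes named above, RBFOX1, a splicing factor of neurons, held 12 peaks in 786-O, with 0 and 0 in Caki-1, DSCAM, an adhesion protein of neurites, 8 in 786-O compared with 0 and 0 in Caki-1, and TENM2, a teneurin, 9 in 786-O compared with 28 and 27 in Caki-1. The group is long, with a median of 959 kb against 319 kb over all long genes, and 36 of its 39 members have 500 kb or more. Long genes of 500 to 1000 kb and of 1000 kb or longer were also sparse and were richer in either line in 36.3% and 45.5% of cases, and the part of length in the group's counts was not tested.

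Of 14 long genes at common fragile sites, 3 were richer in 786-O and 7 in Caki-1 (21.4% and 50%, against 14% and 9.7% of all long genes), with medians of 4.13 peaks per Mb in 786-O compared with 10.4 and 9.25 in Caki-1. All 14 have 500 kb or more and 9 have 1000 kb or more, and in genes of 1000 kb or longer 21 of 66 were richer in Caki-1. DAB1, an adaptor of reelin signalling, held 21 in 786-O compared with 3 and 5 in Caki-1. CTNNA3, an alpha-catenin, held 6 in 786-O, with 12 and 14 in Caki-1. FHIT and WWOX, which lie at the best known sites, were sparse in both lines, FHIT with 4 in 786-O compared with 1 and 1 in Caki-1 and WWOX with 4 in 786-O compared with 4 and 2 in Caki-1.

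Of 15 long genes of kidney tubule and polarity, 14 held a peak in every library, against 76.5% of all long genes. 1 was richer in 786-O and 5 in Caki-1 (6.67% and 33.3%, against 14% and 9.7%). The group is long, with a median of 580 kb against 319 kb over all long genes. 8 of its 15 members have 500 kb or more and 3 have 1000 kb or more. In genes of 1000 kb or longer 21 of 66 were richer in Caki-1, and the part of length in the group's counts was not tested. PKHD1, the fibrocystin gene of recessive polycystic kidney disease, held 11 in 786-O compared with 1 and 2 in Caki-1. ERBB4, a receptor tyrosine kinase, held 1 in 786-O, with 18 and 15 in Caki-1, ESRRG, a nuclear receptor of mitochondrial metabolism, 10 in 786-O compared with 23 and 30 in Caki-1, and NR3C2, the mineralocorticoid receptor, 2 in 786-O, with 9 and 7 in Caki-1. MAGI2, a scaffold of podocyte junctions, held 4 in 786-O compared with 13 and 16 in Caki-1. PARD3, with 40 in 786-O compared with 43 and 47 in Caki-1, and GLIS3, with 36 in 786-O compared with 31 and 40 in Caki-1, were densely occupied in both lines.

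Transcription factors and cofactors were dense, with medians over 31 long genes of 38.9 peaks per Mb in 786-O compared with 44.9 and 48.8 in Caki-1. 7 were richer in 786-O and 3 in Caki-1 (22.6% and 9.68%, against 14% and 9.7% of all long genes), so the share richer in Caki-1 was that of all long genes. AUTS2, a neurodevelopmental chromatin regulator, held 14 in 786-O compared with 0 and 0 in Caki-1, RUNX2, the osteoblast factor, 14 in 786-O compared with 4 and 5 in Caki-1, and HDAC9, a class II deacetylase, 28 in 786-O compared with 12 and 13 in Caki-1. TCF7L2, the nuclear effector of Wnt signalling, held 8 in 786-O, with 21 and 24 in Caki-1, and HDAC4 held 12 in 786-O compared with 35 and 41 in Caki-1. The class II deacetylases HDAC9 and HDAC4 thus lay on opposite sides of the comparison.

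Focal adhesion and cytoskeleton genes were the densest group in Caki-1, with medians over 22 long genes of 38.6 peaks per Mb in 786-O compared with 51.0 and 61.4 in Caki-1. 21 held a peak in every library, 1 was richer in 786-O and 3 in Caki-1 (4.55% and 13.6%, against 14% and 9.7% of all long genes). FMN1, formin 1, held 14 in 786-O compared with 4 and 3 in Caki-1, and PALLD, which encodes the actin-bundling protein palladin, 11 in 786-O, with 35 and 26 in Caki-1. Of 19 signalling enzymes and receptors, 1 was richer in 786-O, PLCB1, a phospholipase, with 11 in 786-O compared with 5 and 5 in Caki-1. 5 were richer in Caki-1, among them PDE4D, a phosphodiesterase that degrades cyclic AMP, with 8 in 786-O compared with 39 and 40 in Caki-1. The shares of signalling genes richer in 786-O and in Caki-1 were 5.26% and 26.3%, against 14% and 9.7% of all long genes. These groups describe the 2 lines and were chosen with earlier results of these data known.

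Peaks in the interior went with peaks at the gene's ends. Long genes with a peak within 1 kb of either end, 677 in 786-O compared with 798 and 830 in Caki-1 (50.5%, 59.6% and 61.9%, against 53.4%, 55.8% and 58.3% of protein-coding genes of any length), held 30.4 intragenic peaks per Mb in 786-O (95% CI 29.7 to 31.1). Those without held 15.3 (14.8 to 15.7). In Caki-1 the densities with and without were 27.1 and 12.8 in replicate 1 and 30.9 and 12.9 in replicate 2. The same direction was seen within each length class: in genes of 1000 kb or longer, 786-O had 8.84 with an end peak and 5.03 without, and Caki-1 had 10.7 and 7.27 in replicate 1 and 12.8 and 7.32 in replicate 2.

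Where only 1 line had an end peak, the interior was denser in that line. 45 long genes had an end peak in 786-O and in neither Caki-1 library, and their interiors held 27.7 peaks per Mb in 786-O compared with 13.6 and 15.1 in Caki-1. 10 of the 45 were richer in 786-O and 0 in Caki-1 (22.2%, against 14% of all long genes), which is near the 20.7% of the 405 genes with no end peak in any library. 163 had one in the Caki-1 pair but not in 786-O, with 12.9 per Mb in 786-O compared with 19.4 and 21.7 in Caki-1, and 10 of these were richer in 786-O and 30 in Caki-1 (6.13% and 18.4%, against 20.7% and 4.44% of genes with no end peak). Interiors of the genes with no end peak held 16.0 per Mb in 786-O compared with 10.7 and 12 in Caki-1. Yet end peaks did not accompany most calls in 786-O: of the 187 genes richer there, 82 had one in 786-O (43.9%, against 50.5% of all long genes). In all, 84 of the 187 had no end peak in any library and 60 had one in all 3. Over all 1340 long genes these numbers were 405 and 575. CTNND2, TENM4 and NTM had none in any library. Of the 130 genes richer in Caki-1, 104 and 107 had an end peak in Caki-1 replicates 1 and 2. Those shares were 80.0% and 82.3%, against 59.6% and 61.9% of all long genes.

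Density was highest in the first 100 kb behind an occupied start. Strand was known from RefSeq for 1111 of the long genes, and the outermost start had a peak within 1 kb in 550 of them in 786-O compared with 649 and 689 in Caki-1. Behind an occupied start, 786-O had 35.5 peaks per Mb at 5 to 25 kb, 39.0 at 25 to 50 kb, 37.6 at 50 to 100 kb, 34.8 at 100 to 200 kb, 27.6 at 200 to 400 kb and 16.3 beyond 400 kb. Behind a start without a peak it had 13.9 at 5 to 25 kb, 18.3 at 100 to 200 kb and 11.9 beyond 400 kb. Caki-1 showed the same shape, with 36.2 and 40.4 at 25 to 50 kb and 16.3 and 18.0 beyond 400 kb behind an occupied start in replicates 1 and 2. Measured from the far end, the density of these 786-O genes was flatter, between 31.7 and 34.0 up to 400 kb. Bins beyond 400 kb hold only the longest genes.

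**Figure D4:**
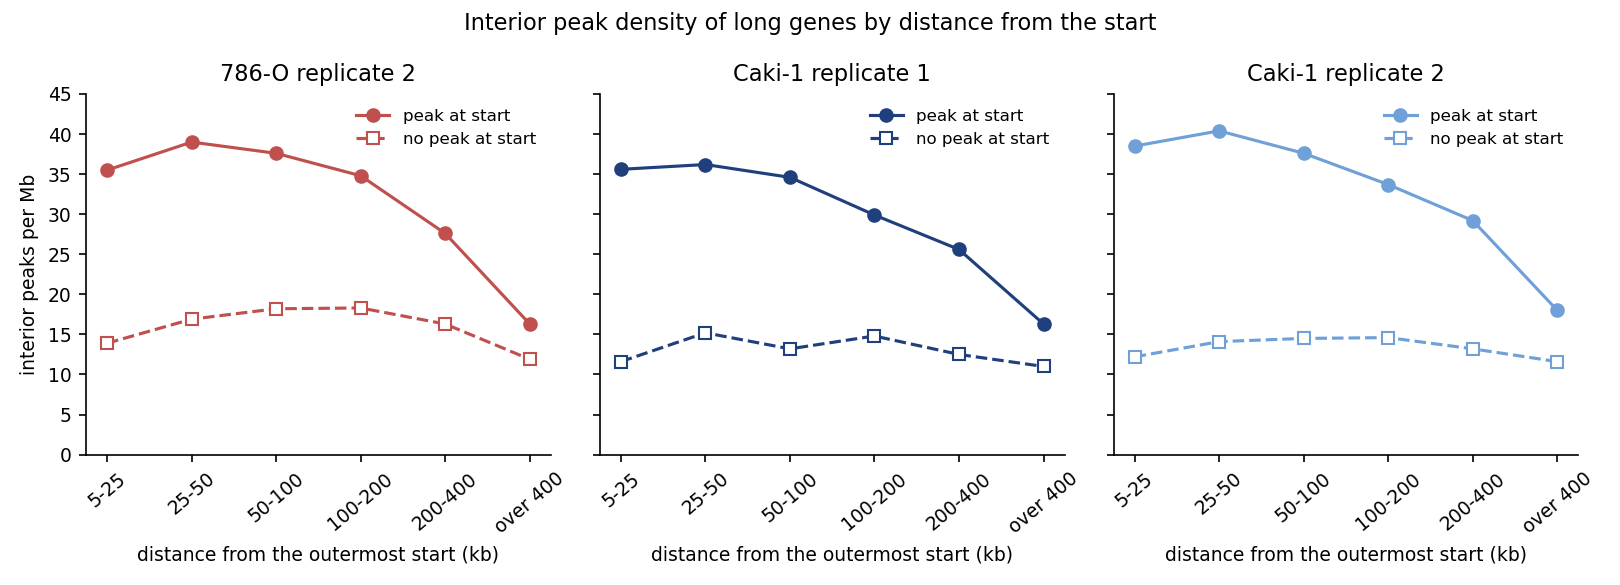
Intragenic peaks per Mb against distance from the outermost start (bins in kb) in 1111 long genes of known strand, with filled circles for genes with a peak at that start and open squares for genes without. The filled line stands at 35.5 to 40.4 per Mb up to 50 kb in all 3 libraries and falls beyond 200 kb, while the open line stays between 11 and 18.3.

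Intragenic regions at internal starts, such as those printed at the opening, were ranked higher and were more often covered in all 3 libraries than regions without a start window. RefSeq gives 1016 internal start windows for 501 of the long genes, leaving out chromosome 8. A peak covered 21.9% of them in 786-O, with 27.3% and 30.5% in Caki-1, against 34.7%, 37.3% and 39.6% of all 33725 RefSeq start windows. 323 merged regions lay at such a start, and 47.4% of them were covered in all 3 libraries, against 14.3% of 21255 regions without any start window. Their median rank was 76.4 in 786-O compared with 71.2 and 77.3 in Caki-1, against 40.3 in 786-O compared with 42.3 and 43.6 in Caki-1 for regions without one.

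**Figure D5:**
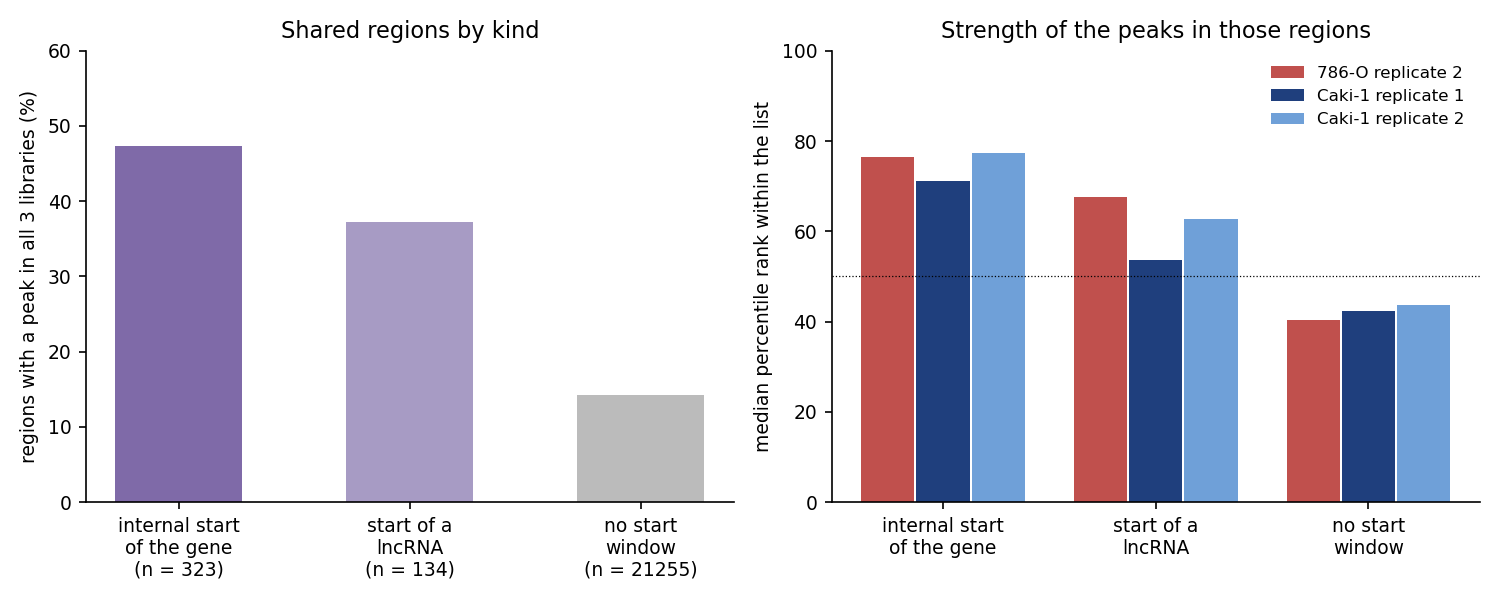
Share of merged regions with a peak in all 3 libraries (left, percent) and median percentile rank of their peaks (right, dotted line at 50) for regions at an internal start of the long gene, at the start of a lncRNA, and without a start window, chromosome 8 left out. Internal starts stand highest, with 47.4% shared and median ranks of 76.4, 71.2 and 77.3.

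The highest of them was at VRK2, whose window is printed above, on chromosome 2 from 58046197 to 58047653, where the lowest rank over the 3 libraries was 99.5. It lay 139 kb behind the gene's outermost start, which had a peak in Caki-1 replicate 2 only. The CHD9 region followed, with a lowest rank of 99.3 at 76.0 kb, and the ZBTB20 region, with a lowest rank of 99.0 at 523.1 kb from the outermost start. Both of these genes had a peak at the outermost start too, in all 3 libraries. The FOCAD region, with a lowest rank of 96.0, lay 28.6 kb behind an outermost start that had no peak in any library. Of the 121 genes with an internal start covered in all 3 libraries, 47 had no peak at the outermost start in any library and 46 had one in all 3.

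Internal starts were less often covered in 786-O alone than regions without a start window, and more often in the Caki-1 pair but not 786-O. 37 of the 323 regions (11.5%) were covered in 786-O alone and 75 (23.2%) in both Caki-1 libraries and not 786-O, against 27.4% and 14.2% of regions without a start window. The MICAL2 region, printed above, ranked at 96.6 in 786-O, and HIP1 at 99.1 and 98.0 in Caki-1 replicates 1 and 2. Further starts of 786-O alone lay in AIG1, SEPTIN9, ARHGAP22, FMN1 and TNS1, at ranks of 84.6 to 91.0. Those of Caki-1 lay in SRPK2, FGF12, GALNT2, SCHIP1 and TCF7L2, at ranks of 88.5 to 96.0.

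Internal starts with and without a peak differed in base composition at the median, with overlap. The 159 windows covered in all 3 libraries had a median of 60.7% G and C and 19 CpG, against 46.7% and 5 in the 635 windows covered in none. The lower quartile of CpG was 5 in windows covered in all 3, which is the median of those covered in none. RefSeq starts as a whole shifted the same way, with medians of 27 CpG where covered in all 3 and 5 where covered in none. A GC box was present in 44.0% of windows covered in all 3 and in 20.5% of those covered in none, against 45% of all RefSeq start windows. The AP-1 motif was present in 13.2% and 9.45%, against 7.67%. The ETS motif was present in 5.03% and 2.52%, against 10.3%, and the NF-Y motif in 31.4% and 32.9%, against 34.4%. The TATA box letters, on either strand and anywhere in the window, were present in 6.92% and 17.6%, against 11.6%. G and C content moves with the GC-rich motifs, and its part in these shares was not tested.

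Starts of long non-coding RNAs inside long genes behaved differently. Of 1148 such windows, 9.41% were covered in 786-O compared with 8.89% and 10.5% in Caki-1. The 59 covered in all 3 libraries had 6 CpG at the median, and 39.0% of them held the AP-1 motif TGANTCA, against 12.2% of the 977 covered in none. The GC box was present in 25.4% and 7.47%. The strongest such regions lay in HECW1, RUNX1, at RUNX1-AS1, and SRGAP1, with lowest ranks of 95.1, 94.3 and 94.1.

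215 microRNA hairpins lay in long gene interiors, and a peak covered 5 in 786-O, with 13 and 10 in Caki-1 (2.33%, 6.05% and 4.65%). Peaks took up 1.21%, 1.2% and 1.49% of interior bases in the same libraries. The shares of hairpins count any overlap of a hairpin with a median of 81 bases, so they are not on the same scale as a share of bases. MIR591 in SLC25A13 on chromosome 7 and MIR625 in FUT8 on chromosome 14 were covered in all 3 libraries. Their mature sequences (RefSeq, GRCh38.p14) are given with the seed, bases 2 to 8, in capitals.
hsa-miR-591: aGACCAUGgguucucauugu
hsa-miR-625-5p: aGGGGGAAaguucuauagucc
hsa-miR-625-3p: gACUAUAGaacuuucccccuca
The seeds differ among the 3 products.

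Not all of the strongest intragenic regions had an annotated start. Of the 10 with the highest lowest rank, 3 lay at an internal start, 4 had no start window and 3 were on chromosome 8, for which start windows were not used here. TRIO had a region on chromosome 5 from 14351842 to 14352356 with ranks of 98.9 in 786-O compared with 99.7 and 98.9 in Caki-1, and another from 14189860 to 14191312 with 99.9 in 786-O compared with 99.0 and 98.7 in Caki-1. FNDC3B, on chromosome 3 from 172208902 to 172210221, and CUX1, a homeodomain factor on chromosome 7 from 101856534 to 101857424, both had lowest ranks of 98.3. On chromosome 8 they lay in STK3, a kinase of the Hippo pathway, NCOA2, a nuclear receptor coactivator, and NDUFAF6, an assembly factor of respiratory complex I.

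As a check of the labelled cell type, peaks within 1 kb of a gene end were counted over marker genes. Of 8 renal epithelial markers, 3 had such a peak in 786-O compared with 4 and 4 in Caki-1. Of all protein-coding genes, 53.4% had one in 786-O compared with 55.8% and 58.3% in Caki-1. Of 5 blood markers 0 had one in 786-O, with 1 and 1 in Caki-1, and of 4 neuronal markers 2 in 786-O compared with 2 and 1 in Caki-1. Of 4 muscle markers 1 had one in 786-O, with 2 and 1 in Caki-1, and of 4 liver markers 1 in each library. The share of renal markers was thus not above that of neuronal markers in 786-O, nor above that of all protein-coding genes in any library. These gene-end peaks therefore did not set the labelled cell type apart. The counts mark occupied gene ends and are not expression.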

How the data were processed

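H4K12la CUT&Tag libraries were grouped by the cell line in the labels. Tools named in the submitters' processing notes are Bowtie2, deepTools and fastp 0.19.6, and the builds are hg38 and GRCh38. For the software and threshold of peak calling, any control library and the number of reads, the sources used here give nothing. The authors deposited 1 peak list per library, so peaks were called per library. Each list gives positions, a width in bp and a value per peak. That deposited value reads as signal at the summit in 786-O replicate 2 and Caki-1 replicate 1, and as a score in Caki-1 replicate 2. It was used only as a percentile rank within its list.

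Genes, start windows and microRNAs came from RefSeq tables on GRCh38.p14. The gene table gives both ends and no strand or exons, so intron and exon positions were not used here, and strand was read from the start windows. The start tables hold no chromosome 8. A peak inside overlapping long genes (56 in 786-O, 47 and 61 in Caki-1) counted in each. Overlaps, densities and exact (Clopper-Pearson) binomial or exact Poisson intervals were computed with Python 3.11.15, numpy 2.4.6, pandas 2.3.3 and scipy 1.17.1, and checked against brute force on simulated intervals.

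The members, gene lists and the rules for named genes were chosen with earlier results of these data known. Genes were named as the 10 highest by shared regions, density, scaled ratio in each line and length without peaks, the 10 strongest regions, and list members, of which a few genes are not reported here. Internal starts specific to a line, promoters printed and list examples were chosen after their values were seen. The calls describe differences between libraries and carry no p-value.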

Additional observations from a re-analysis of the deposited data

How the results depend on the processing

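Without Caki-1 replicate 1 or 2, 215 to 240 genes were richer in 786-O and 162 to 179 in Caki-1. Both calls ask for every library, so leaving one out could not lower them. Counts of peaks and genes stayed within 1.5 times. The spread of the other values was set by the same Caki-1 replicates. Leaving one out could therefore not take a value outside that spread, and nothing is read from it. Other lengths, end distances, minimum counts, ratios, scalings and overlaps gave 95 values. Of these, 64 stayed within 1.5 times or the spread and 31 moved. A change of direction was defined only for the density with over without a gene-end peak, and it did not occur there. A minimum of 4 peaks changed nothing, since counts under 3 taken as 3 and a ratio of 2 already ask for 6. A minimum of 10 left 123 genes richer in 786-O, and a ratio of 3 left 80 in 786-O and 61 in Caki-1. Density was 24.1 per Mb in both lines at a length minimum of 150 kb, and at 300 kb 18.8 in 786-O and 19.2 in Caki-1. At 300 kb there were also 7670 peaks in 786-O and a mean of 7809 in Caki-1, 563 genes with a peak in every library, and median ranks of 35.9 and 39.9. Of Caki-1 peaks, 38.9% were shared with 786-O at 150 kb and 35.1% at 300 kb. An overlap of at least 50% of the peak gave 32.1% of 786-O peaks shared, 29.4% of Caki-1 peaks and 49.4% between replicates. With ranks above 50 only, there were 4673 peaks in 786-O and 5249 in Caki-1 (8.6 and 9.66 per Mb), with 42.8% of 786-O peaks shared, 89 and 60 richer genes, median ranks of 71.5 and 70.3, and widths of 582 and 668 bp, as fewer, stronger peaks were counted. Density with over without a gene-end peak came to 1.99 for 786-O and 2.26 for Caki-1, 2.35 and 2.61 with a gene-end window of 3 kb, and 2.53 in 786-O with ranks above 50, a setting chosen after seeing the data. The cause of the other shifts was not tested. No paired analysis was possible because 786-O has only replicate 2 and the lines share fewer than 2 replicate numbers. The unknown read depth limits how far absent peaks can be read.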
